A study of Rattus norvegicus with 8 samples.

Results

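The core genes of the circadian clock were measured in the ventral prostate of F3 generation male rats on 8 Affymetrix expression arrays. They were taken as all probe sets annotated to exactly 1 of 10 symbols: Bmal1 (also called Arntl), Clock, Per1, Per2, Per3, Cry1, Cry2, Nr1d1, Nr1d2 and Dbp. This choice used no measured value and gave 18 of the 31042 non-control probe sets, where a probe set is the group of short probes that reads 1 transcript stretch. Of these, 14 probe sets in 9 genes passed the filter on dim signal and were tested among 21729 probe sets in all. The other 4 probe sets, among them both for Per3, stayed under it.

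The arrays came from 4 groups of 2, all of Sprague-Dawley rats. The groups were vinclozolin lineage prostate epithelium at 45 days of age, control lineage prostate epithelium at 45 days, vinclozolin lineage whole ventral prostate at 180 days and control lineage whole ventral prostate at 180 days. Vinclozolin is an antiandrogenic fungicide used on crops. The founder females (F0) were injected intraperitoneally on days E8 to E14 of pregnancy, and breeding was carried on to F3, so no animal measured here was itself injected. For all samples the treatment text names the vehicle, DMSO, and no other agent, so the lineages rest on the sample titles. Every epithelium RNA was a pool of 11 animals and every whole prostate RNA a pool of several, without a stated number. Nothing says whether the 2 samples of a group were separate pools of animals, so the p-values measure the spread between these samples, which may be technical. The question posed by the design was how the vinclozolin lineage differed from the control lineage within each preparation.

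The mammalian clock is a loop of transcription. CLOCK and BMAL1 pair and bind E-box sequences to switch on the Per and Cry genes, whose proteins in turn block CLOCK and BMAL1. In a second loop the same pair drives Nr1d1 and Nr1d2, which encode the nuclear receptors REV-ERB alpha and beta, and these repress Bmal1 through ROR response elements. Dbp encodes a leucine zipper factor that is driven by E-boxes and binds D-boxes in output genes. In peripheral tissues such as the prostate these messages rise and fall over the day, with Bmal1 roughly opposite in phase to Nr1d1, Dbp and the Per genes. No source used here gives the hour of tissue collection, so a difference between groups and a difference in sampling hour cannot be told apart. Age and preparation change together between the epithelium and the whole prostate samples and cannot be told apart either.

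The preparations were checked against markers of cell types before the clock genes were read. The summed intensity of 6 luminal epithelial markers (Krt8, Krt18, Epcam, Cdh1, Pbsn and Hoxb13) was 18220 to 18790 in vinclozolin epithelium and 18280 to 18830 in control epithelium, against 17750 to 18190 in vinclozolin whole prostate and 17360 to 17670 in control whole prostate. By markers, the label epithelium did not go with less stromal signal. Of the luminal markers 1 was called lower in epithelium in the vinclozolin lineage, and 1 lower and 1 higher in the control lineage. The sum of 6 smooth muscle markers was 11220 to 11540 in vinclozolin epithelium and 12800 to 12920 in control epithelium, against 1733 to 1864 in vinclozolin whole prostate and 2218 to 2225 in control whole prostate. Of these markers, 5 of 6 were called higher in epithelium in each lineage, as were 5 of 6 fibroblast markers and 3 of 4 basal epithelial markers. The sum of 6 fibroblast markers was 8857 to 9208 and 9006 to 9538 in vinclozolin and control epithelium, against 2531 to 2561 and 2850 to 2859 in vinclozolin and control whole prostate. The sum of 4 basal markers was 2492 to 2561 and 2519 to 2650 in vinclozolin and control epithelium, against 543.2 to 545.7 and 433.1 to 469.1 in vinclozolin and control whole prostate. Adipocyte and leukocyte markers went the other way. The sum of 5 adipocyte markers was 151.1 to 206.7 and 177.4 to 231.8 in vinclozolin and control epithelium, against 1966 to 2116 and 2097 to 2313 in vinclozolin and control whole prostate, with 5 of 5 called lower in the vinclozolin lineage and 4 of 5 in the control lineage. The sum of 8 leukocyte markers was 466 to 475.1 and 512 to 622.4 in vinclozolin and control epithelium, against 2069 to 2146 and 1057 to 1069 in vinclozolin and control whole prostate. Of the 6 leukocyte markers tested, 5 were called lower in epithelium in the vinclozolin lineage, and 4 lower and 1 higher in the control lineage. The sum of 6 skeletal muscle markers was 4449 to 4463 and 5218 to 5554 in vinclozolin and control epithelium, against 427.4 to 465.5 and 1852 to 1897 in vinclozolin and control whole prostate, with 2 called higher and 2 lower in the vinclozolin lineage and 2 higher and 4 lower in the control lineage. The sum of 4 endothelial markers was 421.1 to 476.4 and 373.2 to 426.3 in vinclozolin and control epithelium, against 155.6 to 174.1 and 135 to 171.6 in vinclozolin and control whole prostate, with 3 and 2 of 4 called higher. In such bulk RNA, fewer cells of a type and less RNA per cell cannot be told apart. The ratio of 3′ over 5′ signal for beta-actin, a measure of RNA integrity, also moved with preparation, at 2.26 to 2.35 and 2.27 to 2.57 in vinclozolin and control epithelium, against 3.14 to 3.37 and 3.75 to 3.98 in vinclozolin and control whole prostate. Where these differences touch the clock genes, their part in the result was not tested.

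Promoter windows are shown for 3 genes described below: Bmal1, lower in epithelium in both lineages, Nr1d1, higher in both, and Per2, called higher in the control lineage only. The loop is known to act on these genes through elements of this kind, and each window shown held a match. The windows of Clock, Dbp, Nr1d2, Per1 and Per3 held none of the elements searched and are not shown. The windows are RefSeq sequences of rat build GRCr8, 250 bases before to 50 after an annotated start, written 5′ to 3′ on the gene's strand, with the matched element in capitals. The Bmal1 window, chr1:176766078-176766377 on the plus strand, held the ROR response element TAGGTCA with its first base at -16 from the start.
Bmal1: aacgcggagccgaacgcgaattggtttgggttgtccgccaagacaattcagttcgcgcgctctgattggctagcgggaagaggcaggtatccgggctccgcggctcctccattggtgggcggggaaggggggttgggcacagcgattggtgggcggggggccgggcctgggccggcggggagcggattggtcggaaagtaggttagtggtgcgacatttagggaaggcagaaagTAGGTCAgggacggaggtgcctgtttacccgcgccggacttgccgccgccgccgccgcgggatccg
The Per2 window, chr9:99496944-99497243 on the minus strand, held the D-box TTATGTAA at -192 and the E-prime box CACGTT at -62.
Per2: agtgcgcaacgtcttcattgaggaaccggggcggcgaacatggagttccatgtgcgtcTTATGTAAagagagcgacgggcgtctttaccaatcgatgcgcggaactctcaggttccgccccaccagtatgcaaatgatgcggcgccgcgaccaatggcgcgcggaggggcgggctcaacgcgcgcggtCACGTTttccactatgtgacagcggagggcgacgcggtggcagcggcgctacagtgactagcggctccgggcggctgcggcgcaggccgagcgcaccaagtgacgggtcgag
Nr1d1 has 2 annotated starts, and the window of 1 of them, chr10:84229405-84229704 on the minus strand, held the E-box CACGTG at -191.
Nr1d1, start with E-box: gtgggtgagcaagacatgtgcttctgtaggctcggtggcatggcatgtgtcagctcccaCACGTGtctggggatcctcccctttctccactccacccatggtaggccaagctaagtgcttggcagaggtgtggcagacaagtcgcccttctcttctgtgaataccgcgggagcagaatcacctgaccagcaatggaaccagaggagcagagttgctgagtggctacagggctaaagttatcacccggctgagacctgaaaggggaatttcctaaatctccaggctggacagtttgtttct
The window of the other start, chr10:84231763-84232062 on the minus strand, held an E-prime box in reverse orientation, AACGTG, at -174.
Nr1d1, start with E-prime box: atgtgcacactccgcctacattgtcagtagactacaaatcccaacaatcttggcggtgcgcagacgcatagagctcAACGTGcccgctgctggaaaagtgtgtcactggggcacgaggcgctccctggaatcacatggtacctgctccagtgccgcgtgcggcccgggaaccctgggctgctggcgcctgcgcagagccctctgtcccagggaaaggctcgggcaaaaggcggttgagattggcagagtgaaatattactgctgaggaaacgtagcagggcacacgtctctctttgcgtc
Windows were found for 9 of the 10 genes, 11 windows in all. Besides Bmal1, Per2 and Nr1d1, only the Cry2 window held any of the elements searched, an E-prime box in reverse orientation at -212. The search took in both strands. The share of 33365 distinct rat windows with a match was 6.43% for the E-box CACGTG, 4.84% for the E-prime box CACGTT, 2.24% for the D-box TTANGTAA, 2.63% for TAGGTCA, 4.09% for the other ROR element TGGGTCA and 1.83% for the cyclic AMP response element TGACGTCA. The E-box and the E-prime box differ in 1 letter and a single position cannot match both. Such matches describe the letters of these windows only.

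Between the 45-day epithelium and the 180-day whole prostate the clock genes moved in both directions. In the vinclozolin lineage Nr1d1 and Nr1d2 were higher in epithelium, and Cry1, Bmal1 and 1 probe set of Clock were lower. In the control lineage Nr1d1, Nr1d2, Per2 and Dbp were higher in epithelium, and Cry1, Clock and Bmal1 were lower. The counts were 4 probe sets called higher and 3 called lower of 14 in the vinclozolin lineage, in 2 and 3 genes, and 5 called higher and 4 called lower in the control lineage, in 4 and 3 genes. A call means an adjusted p under 0.05 by limma with Benjamini-Hochberg adjustment over all 21729 probe sets. The preparations differed widely across the transcriptome, where calls on the higher side made up 13.1% of probe sets in the vinclozolin lineage and 12.9% in the control lineage, and calls on the lower side 14.2% and 15.0%. The median absolute change was 0.65 over the 14 clock probe sets and 0.35 over all probe sets in the vinclozolin lineage, and 0.67 and 0.35 in the control lineage. These 2 contrasts use separate arrays, but they share 1 estimate of the spread and the same confounding of age with preparation. Of all called probe sets, 48.0% were higher in epithelium in the vinclozolin lineage and 46.3% in the control lineage. With each array centred on its median instead of quantile normalised, these shares were 32.5% and 28.9%, and the median change over all probe sets was -0.17 and -0.20 instead of -0.06 and -0.05. Against that shift of the whole array, the directions just given for the called clock genes all held under median centring.

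**Figure D1:**
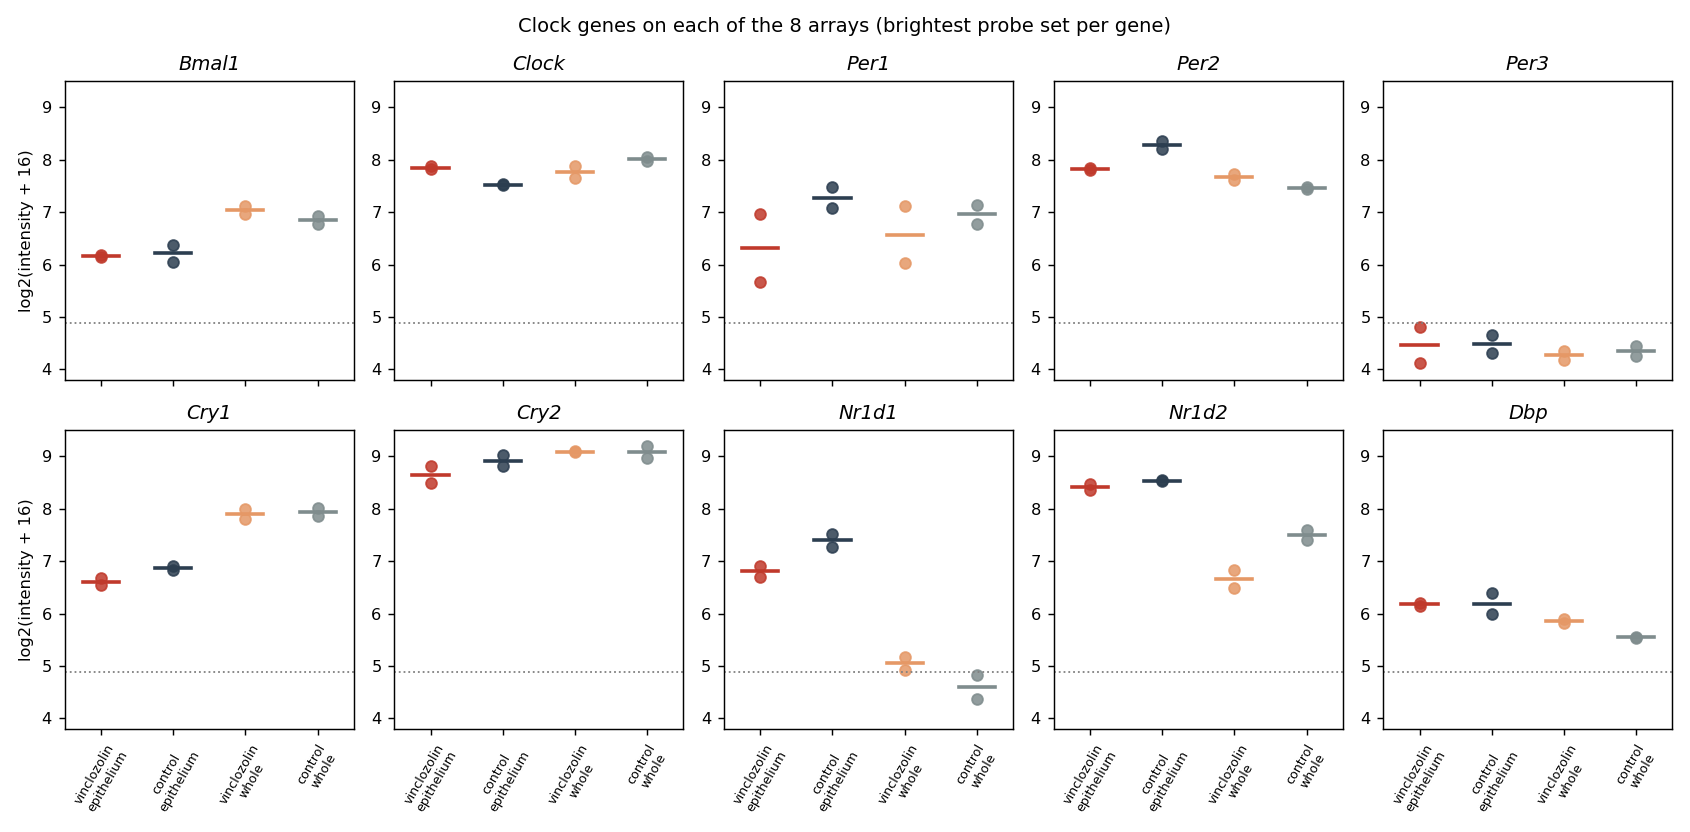
Level of the brightest probe set of each of the 10 clock genes on the 8 arrays, as quantile normalised log2(intensity + 16). Points are arrays, bars are group means of 2 arrays, and the dotted line is the filter level of 4.89; Nr1d1 and Nr1d2 stand higher in both epithelium groups, Cry1 and Bmal1 stand lower there, and all Per3 points lie under the line.

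Bmal1, the partner of CLOCK in the activating pair, had 1 probe set, 1370510_a_at. Its log2 level, here and below log2(intensity + 16) after quantile normalisation, was 6.19 and 6.14 in vinclozolin epithelium and 6.05 and 6.38 in control epithelium, against 6.96 and 7.11 in vinclozolin whole prostate and 6.92 and 6.77 in control whole prostate. All 4 epithelium arrays lay under all 4 whole prostate arrays, while the lineages overlapped within epithelium. The log2 change was -0.87 ± 0.15 (SE of the fit, n = 2 arrays per group; adjusted p = 0.00779, limma) in the vinclozolin lineage and -0.63 ± 0.15 (adjusted p = 0.0235) in the control lineage. In order of level, vinclozolin whole prostate came first and control whole prostate next, with no overlap of arrays, and then the epithelium groups.

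Clock, which encodes the histone acetylating partner of BMAL1, had 4 probe sets that did not all give the same picture. The brightest, 1390199_at, had log2 levels of 7.88 and 7.82 in vinclozolin epithelium and 7.53 and 7.52 in control epithelium, against 7.65 and 7.87 in vinclozolin whole prostate and 7.97 and 8.05 in control whole prostate. Its arrays were apart between the preparations in the control lineage and overlapped in the vinclozolin lineage. The log2 change was 0.09 ± 0.12 (SE, n = 2 per group; adjusted p = 0.602, limma) in the vinclozolin lineage and -0.49 ± 0.12 (adjusted p = 0.0273) in the control lineage. A second probe set, 1389456_at, was lower in epithelium in both lineages. Its log2 levels were 5.77 and 5.86 in vinclozolin epithelium and 5.89 and 6.17 in control epithelium, against 6.60 and 6.79 in vinclozolin whole prostate and 6.77 and 6.68 in control whole prostate. The changes were -0.88 ± 0.14 (adjusted p = 0.00609, limma) in the vinclozolin lineage and -0.70 ± 0.14 (adjusted p = 0.0132) in the control lineage. The probe set 1380098_at spread so widely between replicates that its standard error was 0.62, and it was called in no contrast. Its epithelium arrays read 4.68 and 6.33 in the vinclozolin lineage and 4.87 and 6.12 in the control lineage. The fourth, 1369168_a_at, was dim, between 4.14 and 5.71 on the 8 arrays.

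The Period genes encode the first arm of the repressor. Per2, on the probe set 1368303_at, had log2 levels of 7.81 and 7.85 in vinclozolin epithelium and 8.35 and 8.21 in control epithelium, against 7.72 and 7.61 in vinclozolin whole prostate and 7.44 and 7.47 in control whole prostate. Both epithelium groups lay above both whole prostate groups, and the arrays of no pair of groups overlapped. The change with preparation was 0.16 ± 0.11 (SE, n = 2 per group; adjusted p = 0.323, limma) in the vinclozolin lineage and 0.82 ± 0.11 (adjusted p = 0.00347) in the control lineage, a 1.77-fold rise. With median centring the 2 values were -0.06 and 0.54, and the call in the control lineage held. The second Per2 probe set, 1378560_at, was dim, between 4.38 and 5.48, and was not tested.

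Per1, on the probe set 1374855_at, is the Period gene that is also induced acutely by stress hormones. It had log2 levels of 6.97 and 5.66 in vinclozolin epithelium and 7.47 and 7.07 in control epithelium, against 7.12 and 6.02 in vinclozolin whole prostate and 7.14 and 6.77 in control whole prostate. In all 4 groups the first array lay above the second, and in both vinclozolin groups by more than 1 log2 unit. The standard error of 0.50 for Per1 left wide intervals. The change with preparation was -0.26, with a 95% interval of -1.47 to 0.94, in the vinclozolin lineage and 0.32, with an interval of -0.89 to 1.52, in the control lineage. Per3 was not measurable at this brightness. Its probe set 1388239_at read between 4.13 and 4.80, which is an intensity of 1.6 to 14.2, and 1378745_at between 4.11 and 4.87, an intensity of 1.1 to 15.7.

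The cryptochromes, the second arm of the repressor, differed from each other. Cry1, on the probe set 1392640_at, had log2 levels of 6.68 and 6.54 in vinclozolin epithelium and 6.83 and 6.91 in control epithelium, against 7.81 and 7.99 in vinclozolin whole prostate and 7.87 and 8.01 in control whole prostate. All epithelium arrays lay under all whole prostate arrays, and within whole prostate the lineages overlapped. Its level was 2.44-fold lower in epithelium in the vinclozolin lineage (log2 change -1.29 ± 0.13, SE, n = 2 per group; adjusted p = 0.00107, limma) and 2.09-fold lower in the control lineage (-1.07 ± 0.13; adjusted p = 0.0021). Cry2 was called in neither lineage. Its brighter probe set, 1372548_at, had log2 levels of 8.81 and 8.49 in vinclozolin epithelium and 9.03 and 8.81 in control epithelium, against 9.10 and 9.08 in vinclozolin whole prostate and 8.97 and 9.20 in control whole prostate. The change was -0.44, with a 95% interval of -0.82 to -0.06 (adjusted p = 0.0870, limma), in the vinclozolin lineage and -0.16, with an interval of -0.54 to 0.22, in the control lineage. Other settings did call it lower in the vinclozolin lineage, at -0.53 on the values as deposited, -0.74 with median centring, -0.40 with 64 in place of 16 added and -0.44 with a trended prior. With median centring it was also called in the control lineage, at -0.50. The dimmer Cry2 probe set, 1369446_at, read 5.63 and 5.91 in vinclozolin epithelium and 5.03 and 6.41 in control epithelium, against 5.69 and 5.34 in vinclozolin whole prostate and 4.50 and 5.26 in control whole prostate, and its changes of 0.25 ± 0.46 and 0.84 ± 0.46 in the vinclozolin and control lineages were not called. Without the first control epithelium array, the change in the control lineage was 1.53. That value sets 1 epithelium array, at 6.41, against a control whole prostate mean of 4.88, under the filter level of 4.89.

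The REV-ERB genes, the repressors of Bmal1, were higher in epithelium in both lineages. Nr1d1, on the probe set 1370816_at, had intensities of 108.8 and 92.6 in vinclozolin epithelium and 165.6 and 140.8 in control epithelium, against 17.9 and 14 in vinclozolin whole prostate and 10.1 and 4.2 in control whole prostate. On the log2 scale these were 6.91 and 6.70, 7.51 and 7.28, 5.18 and 4.92, and 4.83 and 4.38, in the same order of groups. The arrays of no pair of groups overlapped. Its level was 3.37-fold higher in epithelium in the vinclozolin lineage (log2 change 1.75 ± 0.20, SE, n = 2 per group; adjusted p = 0.00165, limma) and 6.92-fold higher in the control lineage (2.79 ± 0.20; adjusted p = 0.000318). Both control whole prostate arrays lay under the filter level of 4.89, so the fold depends on the added constant. Over all alternatives the change ran from 0.98 to 2.43 in the vinclozolin lineage and from 1.58 to 4.12 in the control lineage, called throughout.

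Nr1d2 had 3 tested probe sets. The brightest, 1390430_at, had log2 levels of 8.35 and 8.47 in vinclozolin epithelium and 8.53 and 8.54 in control epithelium, against 6.49 and 6.83 in vinclozolin whole prostate and 7.60 and 7.41 in control whole prostate. Epithelium lay above whole prostate on every array, and within each preparation the vinclozolin arrays lay under the control arrays. The change with preparation was 1.75 ± 0.15 (SE, n = 2 per group; adjusted p = 0.000647, limma) in the vinclozolin lineage and 1.03 ± 0.15 (adjusted p = 0.00438) in the control lineage. The probe set 1370541_at gave 1.54 ± 0.13 (adjusted p = 0.000578, limma) in the vinclozolin lineage and 1.34 ± 0.13 (adjusted p = 0.000957) in the control lineage. Its log2 levels were 7.86 and 7.62 in vinclozolin epithelium and 7.99 on both arrays of control epithelium, against 6.12 and 6.26 in vinclozolin whole prostate and 6.69 and 6.62 in control whole prostate. The dimmest, 1370540_at, read 5.76 and 5.46 in vinclozolin epithelium and 4.87 and 5.49 in control epithelium, against 4.12 and 4.36 in vinclozolin whole prostate and 5.38 and 4.92 in control whole prostate. It was called higher in epithelium in the vinclozolin lineage, at 1.37 ± 0.26 (adjusted p = 0.0113, limma), but not in the control lineage, at 0.03 ± 0.26. That call rested on vinclozolin whole prostate arrays under the filter level, at intensities of 1.2 and 4.6. It was lost without the first vinclozolin whole prostate array (1.25, adjusted p = 0.0584, limma) or the first vinclozolin epithelium array (1.20, adjusted p = 0.0586), and its size was 3.22 with 1 added and 0.53 with 64 added.

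**Figure D2:**
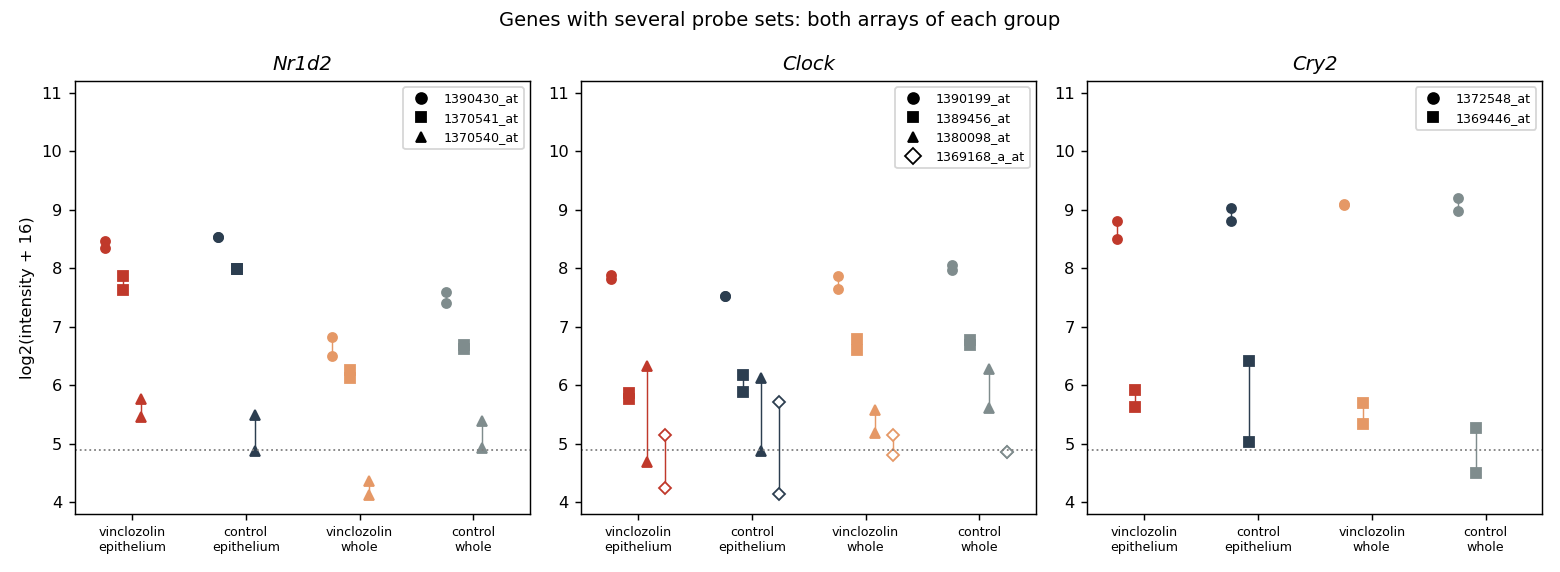
Log2(intensity + 16) of every Nr1d2, Clock and Cry2 probe set on both arrays of each group, joined by a line; open symbols mark a probe set that stayed under the filter, and the dotted line is the filter level. The 2 brighter Nr1d2 probe sets have the same order of groups, and the dim Clock and Cry2 probe sets spread widely between arrays of 1 group.

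Dbp, the output factor, was dim but above the filter on its probe set 1387874_at. Its log2 levels were 6.21 and 6.14 in vinclozolin epithelium and 5.99 and 6.39 in control epithelium, against 5.82 and 5.90 in vinclozolin whole prostate and 5.56 and 5.54 in control whole prostate. All epithelium arrays lay above all whole prostate arrays, and the lineages overlapped within epithelium. The change with preparation was 0.31 ± 0.15 (SE, n = 2 per group; adjusted p = 0.180, limma) in the vinclozolin lineage and 0.64 ± 0.15 (adjusted p = 0.0238) in the control lineage. In the vinclozolin lineage it was called on the values as deposited, at 0.51.

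**Figure D3:**
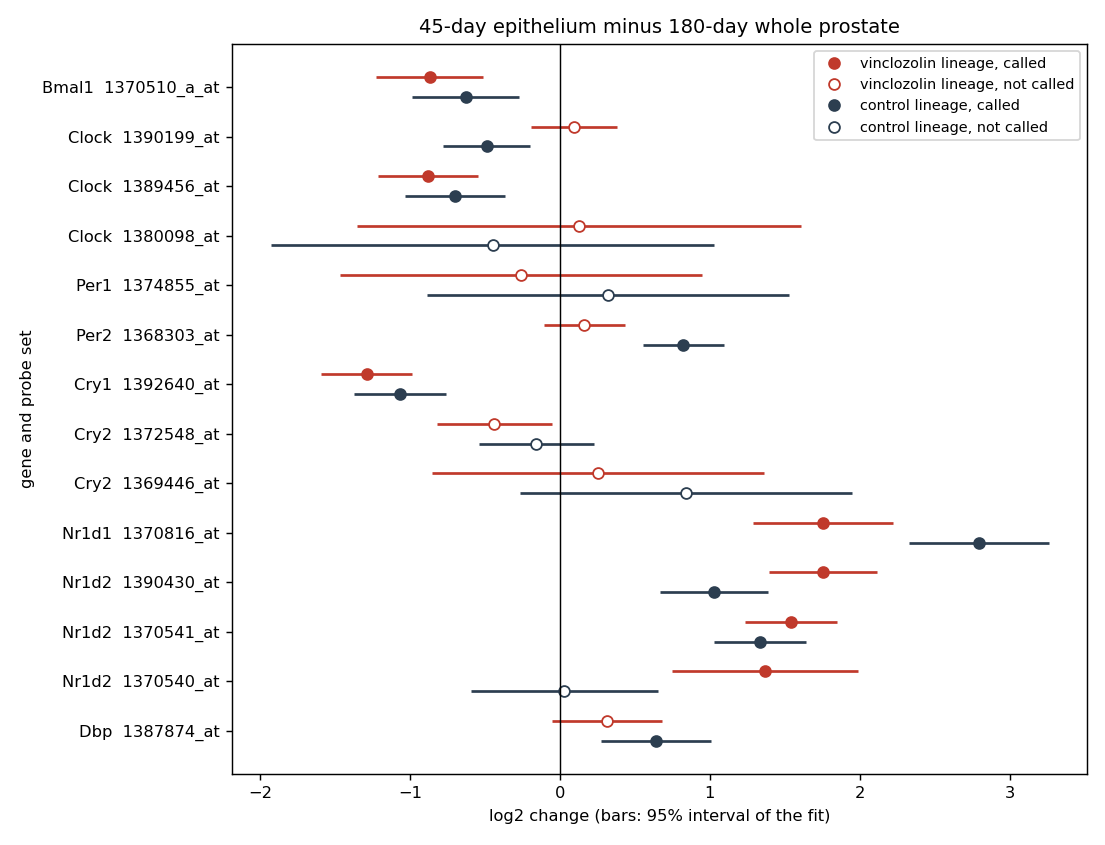
Log2 change of each tested clock probe set, 45-day epithelium minus 180-day whole prostate, in the vinclozolin lineage and in the control lineage. Points are fitted changes, bars are 95% intervals, and filled points were called; the intervals of Nr1d1 and of 2 of 3 Nr1d2 probe sets lie right of 0, and those of Cry1 and Bmal1 left of 0, in both lineages.

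Of the 14 probe sets, 11 had a mean above the filter level in every group. Among these 11, 5 were called in the vinclozolin lineage and 8 in the control lineage. Over all tested probe sets, calls in either direction made up 27.4% and 27.8%, without such a limit on the group means. The other 3 clock probe sets, Nr1d1, Nr1d2 1370540_at and Cry2 1369446_at, passed the filter through their brighter groups. The calls of Cry1, Nr1d1 and the 2 brighter Nr1d2 probe sets held in both lineages under all 16 alternatives, as did that of Per2 in the control lineage and those of Clock 1389456_at and Bmal1 in the vinclozolin lineage. Other calls were lost in places. The Dbp call in the control lineage was lost without the first control whole prostate array (0.64, adjusted p = 0.103, limma), without the second (0.63, 0.108) and without the second control epithelium array (0.44, 0.0697). The Bmal1 call in the control lineage was lost without the first control whole prostate array (-0.54, adjusted p = 0.130, limma), without the second (-0.70, 0.0728) and without the first control epithelium array (-0.47, 0.0864). The Clock 1389456_at call there was lost without the same 3 arrays, with adjusted p of 0.0823, 0.0590 and 0.0543 (limma). The Clock 1390199_at call there was lost without any 1 of the 4 control arrays, with adjusted p between 0.0805 and 0.134 (limma), and without the filter (0.0514). Without either control whole prostate array, or without the first control epithelium array, the count of clock probe sets called lower in the control lineage was 1 instead of 4.

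Between the lineages no clock probe set was called in whole prostate. The closest was Nr1d2, whose vinclozolin arrays lay under the control arrays on all 3 probe sets. Limma called 0 of 14 with the adjusted p against 1.74% of all probe sets, and 3 of 14, all 3 of Nr1d2, had an unadjusted p under 0.05 against 18.7% of all probe sets. The arrays of the lineages did not overlap for 10 of the 14, with 5 higher and 5 lower in the vinclozolin lineage, against 53.9% of all probe sets. On the levels given above, the Nr1d2 probe set 1390430_at had a log2 difference of -0.85 ± 0.15 (SE, n = 2 per group; unadjusted p = 0.000926, adjusted p = 0.0514, limma), with a 95% interval of -1.21 to -0.49. The other Nr1d2 probe sets gave -0.46 ± 0.13 (1370541_at, adjusted p = 0.133, limma) and -0.91 ± 0.26 (1370540_at, adjusted p = 0.141). The last of these read intensities of 1.2 and 4.6 in vinclozolin whole prostate, under the filter level, and its size was -2.48 with 1 added and -0.32 with 64 added. The adjusted p of 1390430_at lay so near the threshold that 5 of 17 alternatives called it, with values between -1.01 and -0.62 and adjusted p between 0.00121 and 0.271 (limma). Those 5 alternatives also called more of all probe sets in whole prostate than the main fit. Beside the Nr1d2 values, markers of other cell types differed between these groups: 2 of 6 leukocyte markers were called higher and 5 of 6 skeletal muscle markers lower in vinclozolin whole prostate, with the sums given above, and the beta-actin ratio was lower. The signal of the 5S ribosomal RNA control was 184 to 189.2 in vinclozolin whole prostate, against 462.9 to 478.6 in control whole prostate, and was 459 or more in both epithelium groups. Their part in the Nr1d2 values was not tested. For this and every contrast of 2 against 2 arrays, an exact permutation test of a single gene cannot go under a two-sided p of 0.333.

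The other clock genes in whole prostate had smaller or less certain differences. Nr1d1 had 0.45 with a 95% interval of -0.02 to 0.91, Dbp 0.31 with an interval of -0.05 to 0.68, and Per2 0.21 with an interval of -0.06 to 0.48. For all 3 the vinclozolin arrays lay above the control arrays. The Nr1d1 value is taken against control arrays under the filter level. It was 1.03 with 1 added and 0.16 with 64 added, and 0.68 and 0.22 without the first and the second control whole prostate array. Bmal1, at 0.19 with an interval of -0.17 to 0.55, had its vinclozolin arrays above too. Clock 1390199_at, at -0.25 with an interval of -0.54 to 0.03, had its vinclozolin arrays below. Cry1, at -0.04 with an interval of -0.34 to 0.27, and Cry2 1372548_at, at 0.01 with an interval of -0.37 to 0.39, overlapped between the lineages. Cry2 1369446_at, at 0.63 ± 0.46, had its vinclozolin arrays above, and Clock 1380098_at, at -0.56 ± 0.62, had them below. Per1 had -0.38 with an interval of -1.58 to 0.83. The median change over the 14 probe sets was -0.03 and over all probe sets -0.01. Changes of opposite sign cancel in these medians, and the median absolute change was 0.35 over the 14 and 0.21 over all.

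In epithelium no clock probe set was called between the lineages either. Limma called 0 of 14 against 0.00920% of all probe sets, which is 2 probe sets, and 3 of 14 had an unadjusted p under 0.05 against 11.4%. Those 3 were Per2 and Nr1d1, lower in the vinclozolin arrays, and Clock 1390199_at, higher. Per2 had -0.45 ± 0.11 (SE, n = 2 per group; adjusted p = 0.273, limma), Nr1d1 -0.59 ± 0.20 (adjusted p = 0.356) and Clock 1390199_at 0.33 ± 0.12 (adjusted p = 0.396). Arrays did not overlap for 8 of the 14, 7 of them lower and 1 higher in the vinclozolin lineage, against 39.4% of all probe sets. Of the remaining 11, Per1 had -0.96 with a 95% interval of -2.16 to 0.25, Bmal1 -0.05 with an interval of -0.41 to 0.30 and Dbp -0.02 with an interval of -0.39 to 0.35. Cry1 had -0.26 and Clock 1389456_at -0.21, both with the vinclozolin arrays below. The Cry2 probe sets had -0.27 (1372548_at) and 0.05 (1369446_at), the Nr1d2 probe sets -0.12 (1390430_at), -0.25 (1370541_at) and 0.43 (1370540_at), and Clock 1380098_at 0.01. The median change was -0.17 over the 14 probe sets and -0.00 over all probe sets. The median absolute change was 0.26 over the 14 and 0.17 over all.

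**Figure D4:**
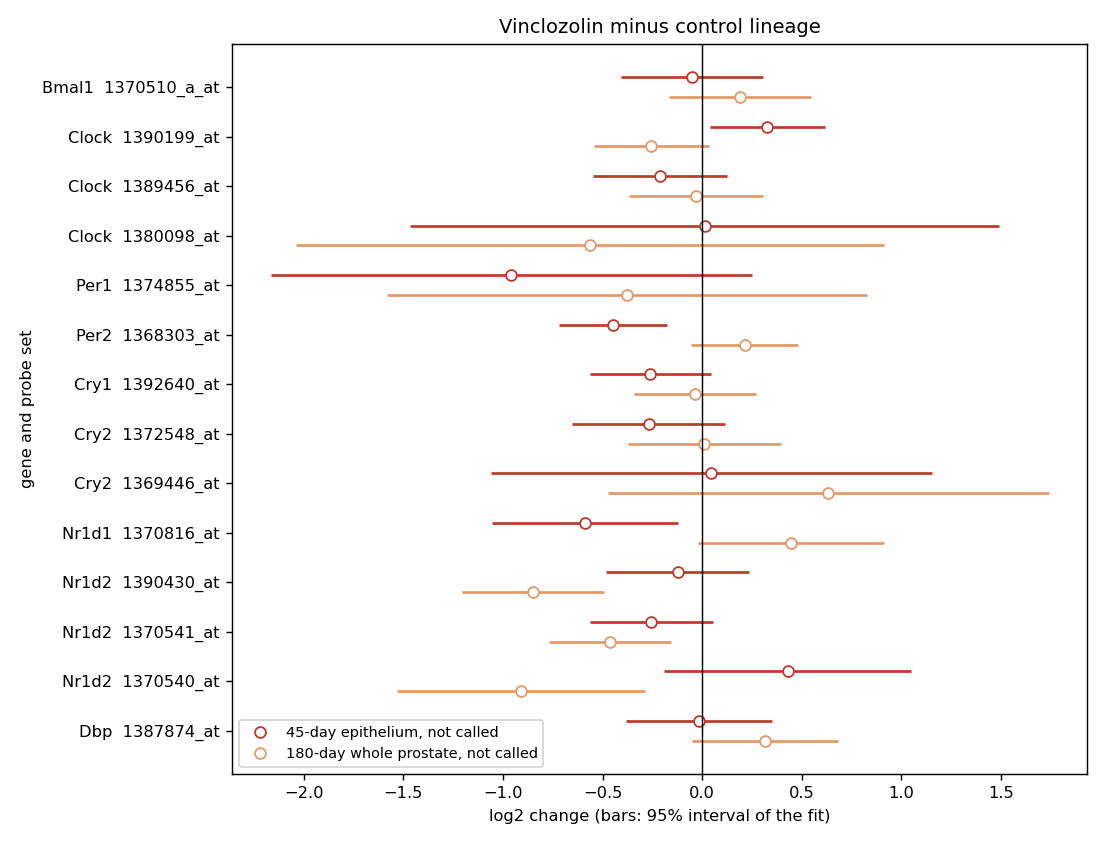
Log2 change of each tested clock probe set, vinclozolin minus control lineage, in 45-day epithelium and in 180-day whole prostate. Points are fitted changes and bars 95% intervals; all points are open because none was called, and the 3 Nr1d2 probe sets lie left of 0 in whole prostate.

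The difference between the lineage effects, epithelium minus whole prostate, was tested in the same fit. The same test asks whether the change with preparation differs between the lineages. Limma called 0 of 14 clock probe sets against 0.290% of all probe sets, and 5 of 14 had an unadjusted p under 0.05 against 13.5%. The median absolute difference was 0.58 over the 14 and 0.26 over all. The lowest adjusted p was that of Per2, whose effect was -0.45 in epithelium and 0.21 in whole prostate, a difference of -0.66 ± 0.16 (SE, n = 2 per group; adjusted p = 0.195, limma). Nr1d1 also had effects of opposite sign, -0.59 in epithelium and 0.45 in whole prostate, with a difference of -1.04 ± 0.28 (adjusted p = 0.219, limma). Since its control whole prostate arrays lay under the filter level, that difference was -1.69 with 1 added and -0.60 with 64 added. For Nr1d2 1390430_at the difference was 0.73 ± 0.21 (adjusted p = 0.245, limma). It was 0.21 ± 0.18 for 1370541_at (adjusted p = 0.673, limma) and 1.34 ± 0.37 for the dim 1370540_at (adjusted p = 0.2315). The last of these was 3.19 with 1 added and 0.52 with 64 added. Clock 1390199_at had effects of 0.33 in epithelium and -0.25 in whole prostate, a difference of 0.58 ± 0.17 (adjusted p = 0.248, limma). Each of these contrasts shares arrays with the others, so they are not independent of one another.

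The wider clock list held 27 further genes, of which 22 matched the array and 21 passed the filter, 1 probe set each. Their share called was 5 higher and 3 lower in epithelium in the vinclozolin lineage and 5 higher and 2 lower in the control lineage, with median changes of -0.02 and 0.06. Over all probe sets the shares were 13.1% higher and 14.2% lower in the vinclozolin lineage and 12.9% higher and 15.0% lower in the control lineage, so the calls on the lower side, 3 and 2 of 21, were near or under those shares. The repressors led it: 3 of 5 were called higher in epithelium in each lineage, with medians of 1.04 and 1.46 in the vinclozolin and control lineages. Bhlhe40, the E-box binding repressor DEC1, had log2 levels of 8.46 and 8.28 in vinclozolin epithelium and 8.81 and 8.96 in control epithelium, against 5.47 and 4.91 in vinclozolin whole prostate and 5.27 and 4.82 in control whole prostate. The change was 3.18 ± 0.23 (SE, n = 2 per group; adjusted p = 0.000345, limma) in the vinclozolin lineage and 3.84 ± 0.23 (adjusted p = 0.000183) in the control lineage. Nfil3, which competes with DBP for D-boxes, had 1.96 ± 0.20 and 2.18 ± 0.20 in the vinclozolin and control lineages, and Bhlhe41, the related DEC2, 1.04 ± 0.14 and 1.46 ± 0.14, all called. Rora, the receptor that activates Bmal1 through the same elements that the REV-ERBs occupy, had log2 levels of 6.54 and 6.72 in vinclozolin epithelium and 6.67 and 6.41 in control epithelium, against 5.26 and 5.29 in vinclozolin whole prostate and 6.01 and 5.84 in control whole prostate. It was called higher in epithelium in both lineages, by 1.35 ± 0.14 and 0.62 ± 0.14, and its difference between the lineages in whole prostate was -0.65 ± 0.14 (adjusted p = 0.0795, limma). Of the outputs, Wee1, a cell cycle kinase, was called higher in the vinclozolin lineage alone, at 0.59 ± 0.12, and Nampt, an enzyme of NAD synthesis, in the control lineage alone, at 0.39 ± 0.11. Their dimmer probe sets, at 0.84 ± 0.34 for Wee1 and 0.10 ± 0.33 for Nampt in those same lineages, were not called. The difference between the lineages was not called for either gene.

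Enzymes that modify clock proteins gave the calls on the lower side. Prkaa1, a subunit of AMP-activated kinase, had -0.90 ± 0.12 and -0.91 ± 0.12 in the vinclozolin and control lineages on its brightest probe set, but its other tested one had 0.22 ± 0.18 and 0.94 ± 0.18, the second of which was called higher. Csnk2a1, a casein kinase 2 subunit, had -0.58 ± 0.17 and -0.60 ± 0.17 on its brightest probe set, while 1384339_s_at had 2.35 ± 0.18 and 1.85 ± 0.18. Csnk1d, a casein kinase that marks PER proteins, had -0.80 ± 0.12 in the vinclozolin lineage on its brightest probe set and 0.68 ± 0.15 on 1370528_at. Since probe sets of 1 gene were called in opposite directions for all 3 kinases, no direction is given for them. In neither lineage contrast was any of the 21 genes called, with 6 in whole prostate and 2 in epithelium at an unadjusted p under 0.05 (limma), against 18.7% and 11.4% of all probe sets. The other activators, Npas2 and Bmal2, were called in no contrast, and Rorb was under the filter.

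A list of 6 glucocorticoid responsive genes was read because Per1 belongs to that response as well. Of the 5 tested, 3 were called higher in epithelium in each lineage, against 13.1% and 12.9% of all probe sets in the vinclozolin and control lineages. The median change was 1.00 in the vinclozolin lineage and 0.84 in the control lineage. Dusp1, an immediate early phosphatase gene, rose by 2.41 ± 0.12 and 2.48 ± 0.12 in the vinclozolin and control lineages, and Sgk1, a kinase, by 1.00 ± 0.12 and 1.05 ± 0.12. Pdk4, at 1.51 ± 0.34, was called in the vinclozolin lineage, and Tsc22d3, at 0.70 ± 0.11, in the control lineage. Fkbp5 went the other way, at -0.12 ± 0.11 and -0.24 ± 0.11 in the vinclozolin and control lineages, and was called in neither. Between the lineages none was called in either preparation.

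Profiles like those of the clock genes were sought among 7989 probe sets of other genes by Pearson correlation over the 8 arrays. No p is given since the arrays share 4 groups. For the mean profile of Per1, Per2, Per3, Nr1d1, Nr1d2 and Dbp the closest were Fnip2 (r = 0.997), Myc (0.987), Creb1 (0.984), Ash1l (0.983) and Anp32a (0.982). For Bmal1 they were Laptm5 (0.991), Ppil4 (0.990), Mnda (0.989), Glipr1 (0.986) and Dynll2 (0.984). In the first profile Per3 lay under the filter level. Its genes were centred on their means but not scaled, so those of larger change, such as Nr1d1, weighed more. Correlations above 0.9 were common, with 749 probe sets for the first profile and 627 for Bmal1, and all points share the contrast of preparations.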

How the data were processed

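Expression of ventral prostate RNA was measured on 8 arrays, in 4 groups of 2 taken from the sample titles. Per the labels, total RNA was extracted with Trizol, labelled with biotin and processed by standard Affymetrix procedures. The authors deposited linear intensities of 31099 probe sets. No source used here names the software behind them, and detection calls were not used. Genes were named from the platform annotation, which can be old, where 20826 probe sets had 1 symbol, 436 several and 9780 non-control ones none.

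The 57 control probe sets were left out, 16 was added, log2 was taken and the arrays were quantile normalised. Probe sets whose mean over 8 arrays lay under the 30th percentile (4.89) were not tested. Adding 16 understates fold changes of dim probe sets. Group means were fitted in R 4.3.3 by lmFit, contrasts.fit and eBayes of limma 3.58.1, with 4 residual and 2.62 prior degrees of freedom, and p-values were adjusted by Benjamini-Hochberg over 21729 probe sets. Python 3.11.15 and matplotlib 3.10.9 were used for promoters and plots. The fit was tested on simulated data. The number of arrays limits the precision; the median SD between the 2 arrays of a group was 0.0998 to 0.141, array medians were 28.7 to 38.7 intensity units, and 0 pairs of arrays were identical.

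For the 10 clock genes every probe set is given, the brightest first. For genes of the other lists the brightest is given, and further probe sets only for some. All 10 clock genes are named. Of the wider clock list, the glucocorticoid list and the lists of cell type markers, genes called in a contrast and up to 4 of lowest p were eligible, and for pattern likeness the 5 genes of highest correlation with an SD of at least 0.3. Some genes of these lists are not reported here. The rule for the 10 clock genes used no measured value, but the genes and lists were chosen with earlier results of these data known. Alternatives were the values as deposited, median centring, 1 or 64 added, no filter, a trended robust prior, array weights, the 4 arrays of a lineage contrast alone, the replicate number as a block, and each array left out.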

Additional observations from a re-analysis of the deposited data

How the results depend on the processing

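With 2 arrays a group, the limits are set by single arrays and, for dim probe sets, by the added constant. The count of clock probe sets called between the lineages in whole prostate was 1 instead of 0, that of Nr1d2 1390430_at, on the values as deposited (-0.95), with median centring (-1.0), with 64 added (-0.62), with a trended robust prior (-0.85) and with array weights (-0.85). All these settings also called more of all probe sets in whole prostate than the main fit. That total rose from 379 to as many as 1814, with the trended robust prior. The 1 clock call thus came with more calls over the whole array. The count of clock probe sets called was 0 in epithelium and for the difference under every alternative. With the replicate number as a block, the count called lower in epithelium in the control lineage was 2 instead of 4, since Clock 1390199_at (adjusted p = 0.0601, limma) and Bmal1 (0.0598) were lost; Dbp was lost too (0.0559). Leaving out 1 array gave 1 to 4. Same-numbered samples correlated at 0.003 in whole prostate and 0.029 in epithelium in their deviations, no sign that the numbers pair them. With 2 arrays a group these values cannot exclude shared handling. Over all probe sets the block called 32 instead of 379 in whole prostate, 0 instead of 2 in epithelium and 5 instead of 63 for the difference, and leaving out 1 array gave 24 to 225, 0 and 5 to 19. A trended robust prior called 1814, 205 and 540. The share of calls that were higher in vinclozolin whole prostate was 47.0%, and 36.1% with median centring. For the wider clock list, alternatives chosen after seeing the data called 3 (trended robust prior) and 1 (array weights) instead of 0 between the lineages in whole prostate. For that list in the control lineage, 3 instead of 5 were called higher in epithelium with the replicate block, and 3 to 5 without 1 array. The count called lower there was 4 instead of 2 with median centring and with the trended robust prior, 1 with 1 added, without the filter and with the replicate block, and 1 to 2 without 1 array. Of 1146 refitted values, 34 changed sign, and 0 of these belonged to a call. Between the lineages in whole prostate Cry2 1372548_at was -0.02 as deposited and -0.07 with median centring. In epithelium Cry2 1369446_at was -0.01 with 64 added, and Clock 1380098_at was -0.02 with median centring, -0.08 with 1 added and 0 on 4 arrays alone. Between preparations in the vinclozolin lineage, Per2 was -0.06 and Clock 1390199_at -0.13 with median centring, and Clock 1380098_at was 0 with 1 added. Without 1 array, the values that changed sign between the lineages in whole prostate were Per1 (-0.92 to 0.17), Cry1 (-0.13 to 0.06), Cry2 1372548_at (-0.10 to 0.13) and Clock 1389456_at (-0.13 to 0.06). In epithelium they were Cry2 1369446_at (-0.65 to 0.73), Dbp (-0.22 to 0.19), Clock 1380098_at (-0.81 to 0.84) and Bmal1 (-0.22 to 0.11). For the difference they were Per1 (-1.25 to 0.08), Cry2 1369446_at (-1.28 to 0.10) and Clock 1380098_at (-0.25 to 1.41). Between preparations they were Nr1d2 1370540_at (-0.28 to 0.34) and Clock 1380098_at (-1.07 to 0.18) in the control lineage, and Per1 (-0.93 to 0.40), Clock 1390199_at (-0.02 to 0.20) and Clock 1380098_at (-0.70 to 0.96) in the vinclozolin lineage. Where an array was left out, the lone array of its group was assumed to vary like the other groups. The cause of these changes was not tested.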
